A study of Mus musculus with 3 samples.

Results

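Plasminogen activators cut plasminogen, an inactive precursor that circulates in blood, into plasmin, a protease that dissolves fibrin and degrades matrix proteins. The 5 genes described here belong to this system in mouse heart: Plau encodes the urokinase-type activator, Plat the tissue-type activator and Plaur the surface receptor that holds urokinase on the cell. Serpine2 encodes protease nexin-1, a serpin that inhibits urokinase, tissue-type activator and thrombin. Serpinf1 encodes pigment epithelium-derived factor (PEDF), which has the fold of a serpin but is not known to inhibit a protease, so the term inhibitor applies to Serpine2 only. In the infarcted heart, fibroblasts and macrophages are known sources of these proteins, and plasmin made at the cell surface is known to take part in cell migration and in removal of the provisional matrix. The genes were selected by name, through the RefSeq transcript that each array probe carries. No measured value entered that rule, but earlier results of these data were known when the genes were chosen. They are 5 of 15394 genes measured, and 6 probes represent them.

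Cardiac myofibroblasts, the contractile and matrix-producing fibroblasts of injured heart, were compared in 3 culture states with 1 array each. All 3 states shared their origin: in male C57BL/6J mice the left anterior descending coronary artery was tied off for good, hearts were digested with collagenase and elastase 3 days later, and attached cells that lacked CD45, a leukocyte surface protein, were kept. The labels give the age as 8 weeks in one field and as 10 weeks at ligation in another, and no genotype other than the strain. The adherent cells grew on plastic plates, the non-adherent cells came from those plates and were held in suspension on ultra-low attachment plates, and the re-adherent cells were returned from suspension to plastic. According to the study's methods each state lasted about a week and one followed the other. Time in culture therefore cannot be told apart from the state. The methods also report that most cells were lost in suspension, and attribute this to anoikis, the death of cells without attachment. The non-adherent and re-adherent RNA thus comes from the surviving cells. Selection of cells cannot be told apart from change within cells. The cells were released with trypsin, a protease, before suspension, and each RNA is described as a mixture over several hearts. The study set these states side by side to find genes that follow the physical support of the cells.

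With 1 array per state there is no spread between biological replicates and no p-value. Values are the processed spot intensity in scanner units, or its log2 after division by the array's 75th percentile (the log2 level), and each log2 difference carries the error that the scanner software assigned to both spots, which covers technical error within the arrays only. A gene is written as having risen or fallen where the difference was over 2-fold. The 75th percentile was 651, 697 and 541 units for adherent, non-adherent and re-adherent cells. The lowest intensity well above background lay between 14.0 and 18.3 units. Each of the 5 genes was well above background in every state, and none of their spots carried an outlier flag or was saturated. The states matched their labels in part. Acta2, which encodes smooth muscle actin, the protein that defines myofibroblasts, had a log2 difference of -6.64 in suspension and of 6.57 on re-adhesion. Postn, another myofibroblast marker, differed by -0.12 and -0.09 on the log2 scale in the same steps. Ptprc, which encodes CD45, stood clear of background in all 3 states in spite of the depletion, at 355 units in adherent, 2441 units in non-adherent and 532 units in re-adherent cells.

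The sequence next to an annotated start is shown for the genes that had one in the RefSeq table of GRCm38.p6, for reading beside the values that follow. Plaur, Serpine2 and Serpinf1 had a window of 250 bases before a start that this table gives, and Plat and Plau are only named. The Serpine2 and Serpinf1 windows adjoin the end of the annotated gene, whereas the Plaur window lies within the annotated span of Plaur, so its start is not the outermost one. Capitals mark matches, on either strand, of the 5 motifs searched: TEAD (GGAATG), AP-1 (TGACTCA, or TGAGTCA on the other strand), the SRF CArG box, SP1 (GGGCGG) and the E-box (CACGTG). The Serpine2 window lies at chr1:79858666-79858915 on the minus strand, the Serpinf1 window at chr11:75422624-75422873 on the minus strand and the Plaur window at chr7:24462233-24462482 on the plus strand.
Serpine2: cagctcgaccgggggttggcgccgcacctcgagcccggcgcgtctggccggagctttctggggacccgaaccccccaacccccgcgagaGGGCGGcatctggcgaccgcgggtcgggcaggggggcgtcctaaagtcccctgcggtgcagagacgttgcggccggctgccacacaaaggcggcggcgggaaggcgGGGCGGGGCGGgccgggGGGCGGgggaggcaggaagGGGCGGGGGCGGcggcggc
Serpinf1: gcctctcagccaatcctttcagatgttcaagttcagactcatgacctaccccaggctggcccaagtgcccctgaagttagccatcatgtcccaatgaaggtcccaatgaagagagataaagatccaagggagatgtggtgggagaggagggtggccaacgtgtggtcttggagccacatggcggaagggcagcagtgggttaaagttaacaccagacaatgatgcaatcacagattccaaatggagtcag
Plaur: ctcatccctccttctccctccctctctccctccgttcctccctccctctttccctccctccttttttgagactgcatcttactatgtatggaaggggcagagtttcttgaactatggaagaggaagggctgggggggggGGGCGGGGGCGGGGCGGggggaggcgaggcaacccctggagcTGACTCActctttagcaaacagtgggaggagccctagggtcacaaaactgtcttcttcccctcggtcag
The Serpine2 window had 78.8% G and C and held 6 SP1 matches, some of which share a base with their neighbour. The Plaur window had 59.6% G and C and held 3 SP1 matches and 1 AP-1 match, the latter 69 to 63 bases before the start given for this window. The Serpinf1 window had 51.6% G and C and held none of the 5 motifs. Among all 32851 windows of the same length the median G and C content was 52.4%, and 32.7% held SP1, 4.46% AP-1, 12.6% TEAD, 6.02% the E-box and 1.47% the CArG box. A match describes letters only, and the arrays hold no measure of binding.

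When the cells went from plastic into suspension, urokinase and protease nexin-1, an activator and an inhibitor of the same pathway, rose together, and the other 3 genes stayed within 2-fold. Of the 5 genes, 2 were over 2-fold higher and 0 over 2-fold lower in suspension, while 17.2% of all genes measured were over 2-fold higher and 14.7% over 2-fold lower. On re-adhesion 0 of 5 were over 2-fold higher and 2 of 5 over 2-fold lower, beside 15.6% and 16.3% of all genes. With 5 genes, a count of 2 is not set apart from these shares. The median of the 5 genes was -0.04 in the step into suspension and -0.05 on re-adhesion, and that of all genes -0.07 and 0.08, all as log2 differences. Both steps share the non-adherent array, so an error on that array moves them in opposite directions.

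**Figure D1:**
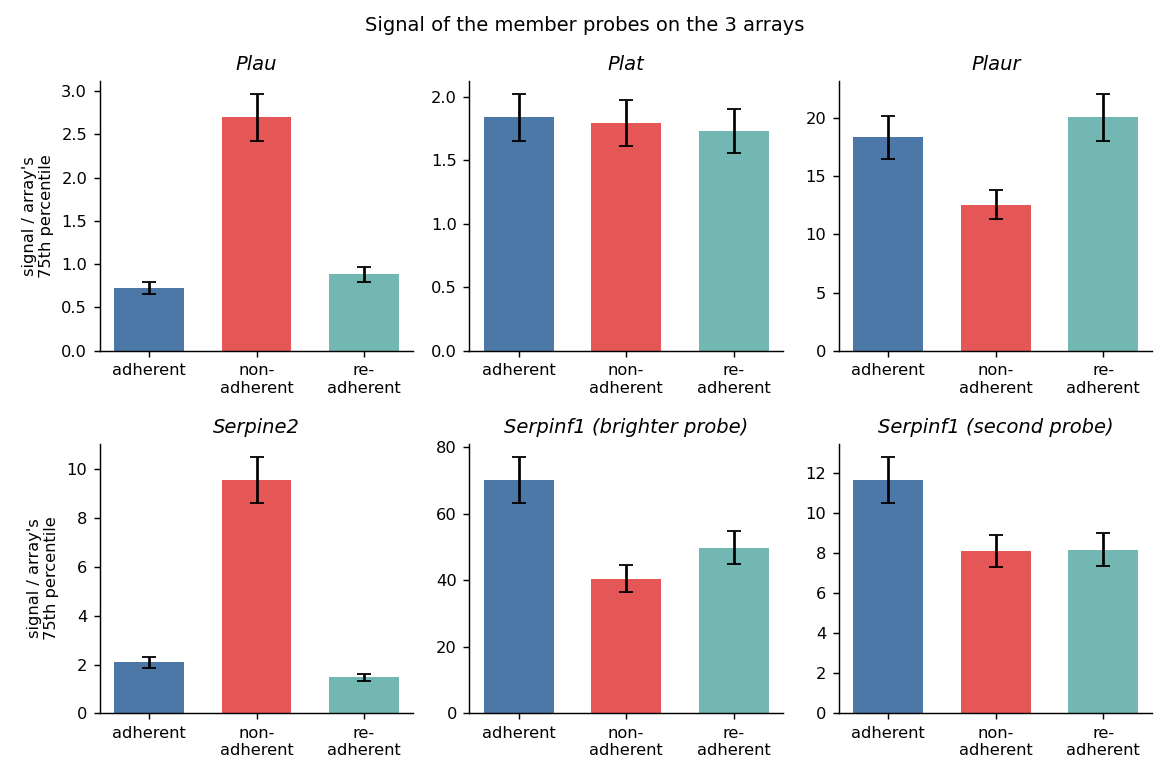
Intensity of the 6 probes divided by the 75th percentile of the array, for adherent, non-adherent and re-adherent cells, with 1 array per bar; error bars are the scanner software's error of the spot. Plau and Serpine2 stand highest in non-adherent cells, Plat is level, and both Serpinf1 probes are highest in adherent cells.

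Plau, the gene of urokinase, was measured by a probe for NM_008873. Its intensity was 471 units in adherent, 1880 units in non-adherent and 477 units in re-adherent cells, which gave log2 levels of -0.47, 1.43 and -0.18. The non-adherent array stood alone above the other two. The rise in suspension was 3.73-fold, a log2 difference of 1.90 ± 0.20 (software error), and 1264 of 15394 genes had a higher difference. On re-adhesion Plau fell 3.06-fold, by 1.61 on the log2 scale. In size, 14.0% of genes changed more in the first step and 16.9% more in the second. A rise and a return as large as those of Plau were found in 955 genes (6.20%).

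Plat, the gene of tissue-type activator, was measured by a probe for NM_008872. With the scaling used here, Plat differed between states by less than its technical error. It read 1197 units in adherent, 1249 units in non-adherent and 938 units in re-adherent cells. After scaling, its log2 levels were 0.88, 0.84 and 0.79, so the array with the lowest intensity was also the dimmest array and the 3 levels lay closer together than the error of 0.20. The log2 differences were -0.04 in suspension, -0.05 on re-adhesion and -0.09 between re-adherent and adherent cells. Of all genes, 96.6% changed more in suspension and 95.6% more on re-adhesion, and 54 genes (0.351%) were no further from 0 than Plat in all 3 comparisons. The sign of the Plat difference is not settled. In suspension it lay between -0.34 with spike-in scaling and 0.24 with the local median of the array subtracted. Differences beyond the error also occurred on re-adhesion (-0.41 with no scaling) and between re-adherent and adherent cells (-0.52 with spike-in scaling). These settings moved the median of all genes to -0.28 and -0.37 in the same comparisons.

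Plaur, the urokinase receptor, stayed within 2-fold, with its lowest level in non-adherent cells. A probe for NM_011113 read 11954 units in adherent, 8735 units in non-adherent and 10871 units in re-adherent cells, with log2 levels of 4.20, 3.65 and 4.33. The non-adherent level was 68.3% of that in adherent cells. The log2 difference was -0.55 ± 0.20 (software error) in suspension and 0.68 ± 0.20 on re-adhesion, each larger than the technical error, and the difference of 0.13 between re-adherent and adherent cells was not. Plaur and Plau, receptor and ligand, therefore had differences of opposite sign in both steps. When each spot was set against the spots around it, the Plaur differences were -0.18 and 0.24.

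Serpine2, the gene of protease nexin-1, had the largest differences among the 5 genes in both steps. A probe for NM_009255 read 1360 units in adherent, 6664 units in non-adherent and 803 units in re-adherent cells, and the log2 levels were 1.06, 3.26 and 0.57. Non-adherent cells stood above both other states, and re-adherent cells stood below adherent cells. The rise in suspension was 4.58-fold, a log2 difference of 2.19 ± 0.20 (software error), with 977 of 15394 genes higher. The fall on re-adhesion was 6.45-fold, a log2 difference of -2.69 ± 0.20, with 431 genes lower. In size, 10.8% of genes changed more in the first step and 6.36% in the second, and 321 genes (2.09%) had both a rise and a return as large.

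Serpinf1, the gene of PEDF, was the only one of the 5 with more than 1 probe, and both probes had their highest level in adherent cells. The brighter probe read 45634 units in adherent, 28208 units in non-adherent and 26930 units in re-adherent cells, with log2 levels of 6.13, 5.34 and 5.64. The second probe read 7577, 5636 and 4416 units in the same order, with log2 levels of 3.54, 3.02 and 3.03. In suspension the log2 difference was -0.79 by the brighter and -0.52 by the second probe, each with an error of 0.20. On re-adhesion the brighter probe gave 0.30 and the second probe 0.01, again each with an error of 0.20. Between re-adherent and adherent cells they gave -0.50 and -0.51, so the level in re-adherent cells was 71.0% and 70.1% of that in adherent cells.

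Comparing re-adherent with adherent cells asks which levels had come back after the return to plastic. All 5 genes were within 2-fold of the adherent level, where 4.84% of all genes were over 2-fold higher and 4.9% over 2-fold lower. Plaur and Plau were at 109% and 122% of the adherent level, Plat at 94.2%, and Serpine2 and the brighter Serpinf1 probe at 71.0% each. The log2 differences of Serpine2 (-0.49) and Serpinf1 (-0.50) were larger than the technical error of 0.20, that of Plau (0.28) only slightly so, and those of Plat and Plaur were smaller. In this comparison the median of all genes was 0.06.

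**Figure D2:**
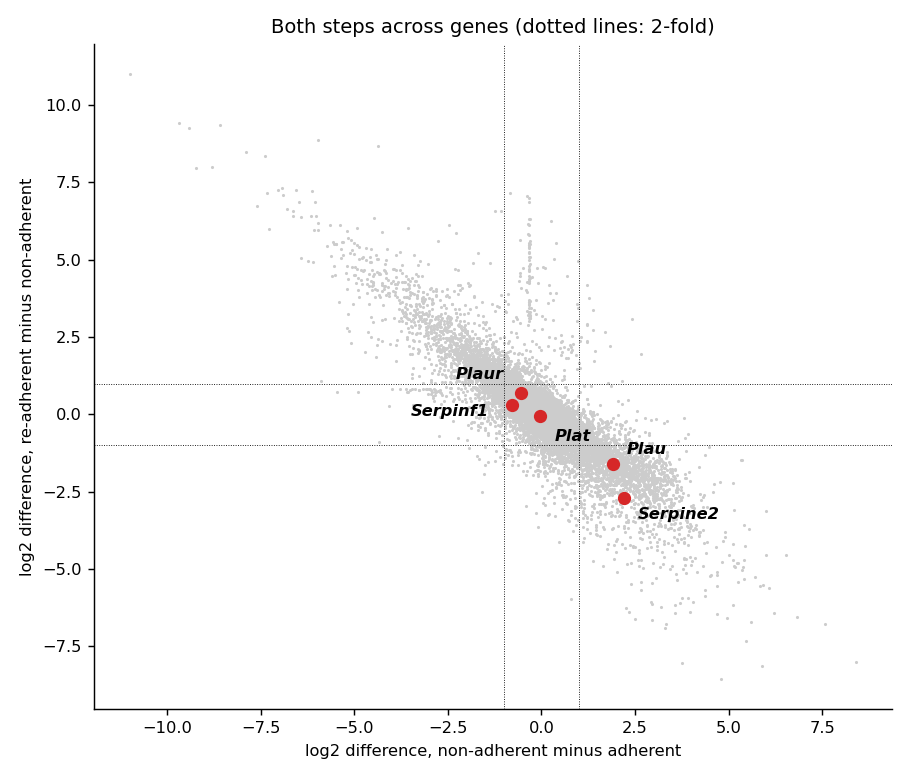
Log2 difference in suspension (horizontal axis) against log2 difference on re-adhesion (vertical axis) for all genes measured (grey) and the 5 genes (red circles), with 2-fold marked by dotted lines. Serpine2 (2.19, -2.69) and Plau (1.90, -1.61) lie at the lower right; the axes share the non-adherent array.

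Plasminogen itself and the main inhibitor of plasmin were not measured above background. Plg read between 5.11 and 8.39 units and Serpinf2, the gene of alpha 2-antiplasmin, between 8.84 and 21.6 units, and neither passed the background threshold in any state. Counts on the lists below, marker lists included, stand beside 17.2% of all genes over 2-fold higher and 14.7% over 2-fold lower in suspension. On re-adhesion these shares were 15.6% and 16.3%. The shares count every difference over 2-fold. A list gene below background in a state was counted more strictly. The lowest intensity well above background then stood in, and the gene rose or fell only if still over 2-fold. The list of plasmin enzymes and serpins outside the 5 genes held 8 genes, of which 4 were measured. In suspension 1 of these rose (Cpb2) and 0 fell, and on re-adhesion 0 rose and 1 fell (Klkb1, not well above background in re-adherent cells). Cpb2, which encodes a carboxypeptidase that protects fibrin from lysis, read 36.1 units in adherent, 82.3 units in non-adherent and 33.3 units in re-adherent cells. Serpinb2, plasminogen activator inhibitor-2, read 98.4, 75.5 and 33.8 units, and its log2 difference between re-adherent and adherent cells was -1.28. Serpini1, neuroserpin, an inhibitor of tissue-type activator, read 325, 366 and 495 units and stayed within 2-fold in every comparison.

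The receptors that gather plasminogen or its activators at the cell surface, and those that clear activator and serpin complexes, split between directions. In suspension 2 of 14 rose and 1 fell, with a median log2 difference of -0.15, and on re-adhesion 5 rose and 3 fell, with a median of 0.13. Vtn, the gene of vitronectin, was also lower on re-adhesion, from 17.9 to 4.69 units, but too close to background for a fold. With Vtn, 4 of 14 were over 2-fold lower on re-adhesion, counted as the shares of all genes are. Anxa2 and S100a10 encode the partners of a complex that binds plasminogen and tissue-type activator. Anxa2 read 227787 units in adherent, 131677 units in non-adherent and 280686 units in re-adherent cells, and its log2 difference was -0.89 in suspension and 1.46 on re-adhesion. S100a10 read 19121, 11100 and 30706 units, with log2 differences of -0.88 and 1.83. Itgav, the integrin alpha-v chain, had log2 differences of -0.86 and 1.27, much like these 2 genes.
Among the endocytic receptors, Lrp2, megalin, read 170 units in adherent, 32.4 units in non-adherent and 180 units in re-adherent cells, and fell by 2.49 on the log2 scale before it rose by 2.83. Lrp1, the receptor that takes up complexes of urokinase or tissue-type activator with the protein of Serpine2, had log2 differences of 1.04 and -1.16, and was named after its values were seen. Itgb3, an integrin chain that binds vitronectin, rose by 1.24 and fell by 2.19 on the log2 scale by its brighter probe, while its second probe gave -0.05 and -1.34. Itgam, the macrophage integrin chain, also had probes that disagreed in sign, with log2 differences in suspension from -0.84 to 1.96, and its direction is not given.

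**Figure D3:**
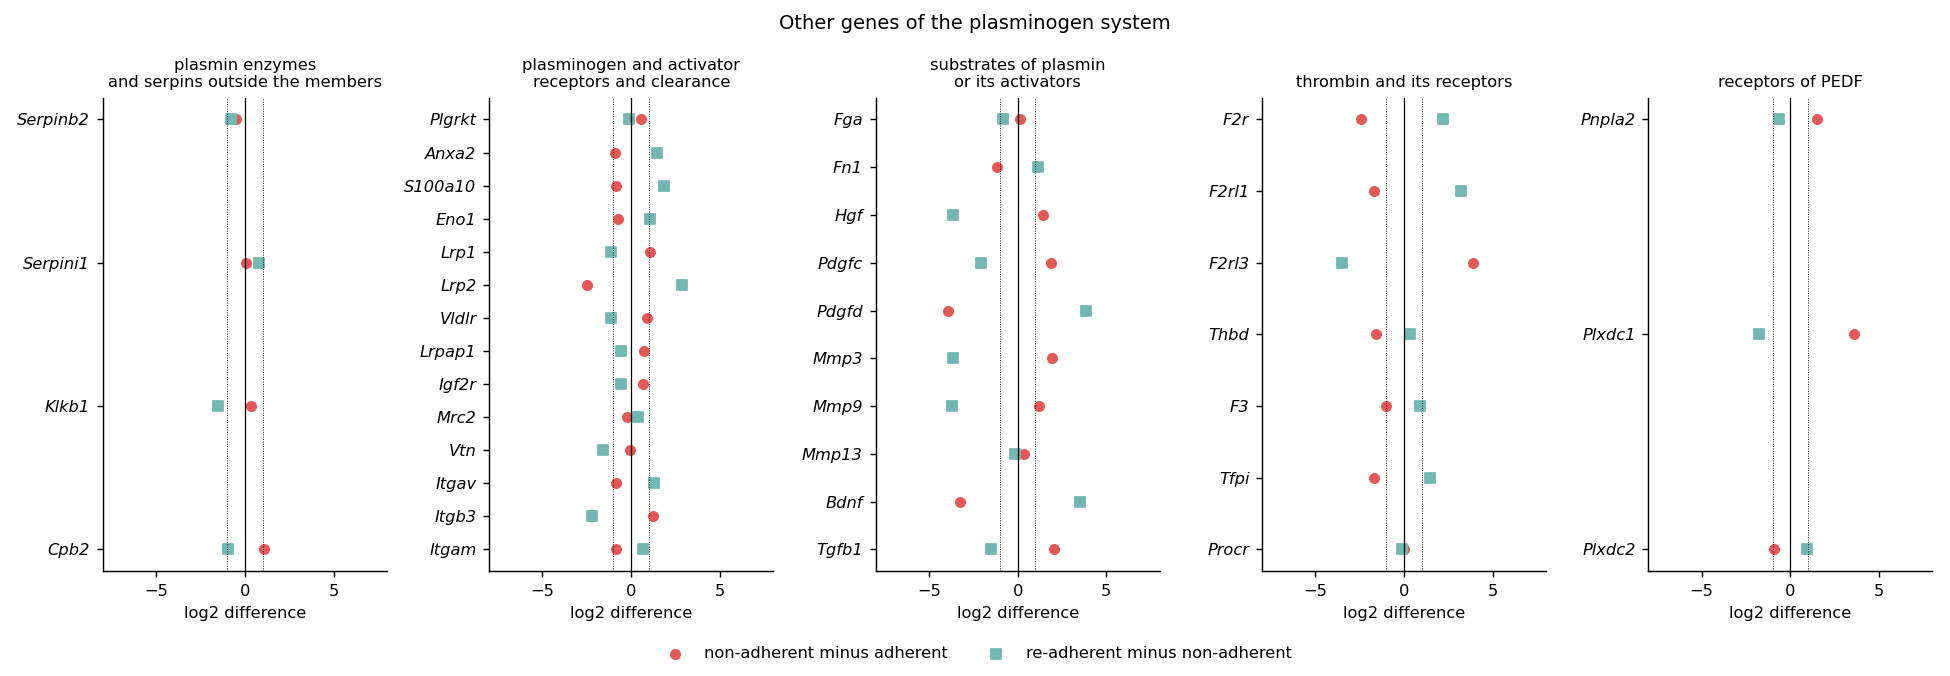
Log2 differences in suspension (red circles) and on re-adhesion (teal squares) of the measured genes on 5 lists of the plasminogen system, 1 array per state, with dotted lines at 2-fold. Pdgfd, Bdnf and F2r lie left in suspension and right on re-adhesion, and Mmp3, Hgf and Plxdc1 the reverse.

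Substrates of plasmin or its activators moved in both directions. Of 10 measured, 5 rose and 3 fell in suspension (median log2 difference 0.78), and 3 rose and 5 fell on re-adhesion (median -1.18). Hgf, hepatocyte growth factor, whose precursor urokinase can cut, read 210 units in adherent, 611 units in non-adherent and 38.0 units in re-adherent cells. Mmp3, stromelysin-1, which plasmin activates, read 11097, 44647 and 2747 units. Both rose in suspension, by 1.44 and 1.91 on the log2 scale, and both ended below the adherent level, with differences of -2.20 and -1.75.
Pdgfc and Pdgfd encode growth factors released from latency by tissue-type activator and by urokinase, respectively. Pdgfc read 550 units in adherent, 2179 units in non-adherent and 398 units in re-adherent cells, and rose by 1.89 before it fell by 2.09 on the log2 scale. Pdgfd read 306, 21.8 and 249 units and went the other way, with log2 differences of -3.91 and 3.88, each with an error of 0.32. Bdnf, brain-derived neurotrophic factor, whose precursor plasmin can cut, read 2489, 284 and 2514 units and moved like Pdgfd, with differences of -3.23 and 3.51.

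Thrombin is another protease that protease nexin-1 inhibits. F2, the gene of prothrombin, did not pass the background threshold in any state. Of 7 genes of this group measured, 1 rose and 4 fell in suspension (median log2 difference -1.61). Counted as the shares of all genes are, 1 was over 2-fold higher and 5 over 2-fold lower, beside 17.2% and 14.7%. The gene that rose was F2rl3, at 56.8 units in non-adherent cells and below background in adherent cells. F2rl1 was below background in both states of that step. F2r, the main thrombin receptor, read 33139 units in adherent, 6600 units in non-adherent and 23113 units in re-adherent cells, with log2 differences of -2.43 and 2.17. Tfpi and F3, the tissue factor pathway inhibitor and tissue factor, had differences of -1.67 and -1.02 in suspension. Thbd, thrombomodulin, fell by 1.61 and differed by 0.31 on re-adhesion, with a difference of -1.30 between re-adherent and adherent cells. Procr, the protein C receptor, differed by -0.01 and -0.10.

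Of the 3 receptors reported for PEDF, 2 rose in suspension and 0 fell. Plxdc1 read 213 units in adherent, 2684 units in non-adherent and 609 units in re-adherent cells, and rose by 3.56 on the log2 scale. Pnpla2, a triglyceride lipase, read 3193, 9545 and 4740 units and rose by 1.48. Plxdc2 differed by -0.93 in suspension and 0.93 on re-adhesion. Serpinf1, which encodes their ligand, differed by -0.79 in suspension.

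Over the 5 lists together, 38 of 46 genes were measured, with a median log2 difference of 0.035 in suspension and -0.14 on re-adhesion. In suspension the intensity of 11 (28.9%) was over 2-fold higher and that of 9 (23.7%) over 2-fold lower, beside 17.2% and 14.7% of all genes, and with spike-in scaling these counts were 7 and 15. On re-adhesion 11 (28.9%) were over 2-fold higher and 12 (31.6%) over 2-fold lower, beside 15.6% and 16.3% of all genes. Between re-adherent and adherent cells 2 (5.26%) were over 2-fold higher and 7 (18.4%) over 2-fold lower, beside 4.84% and 4.9% of all genes. Where an intensity near background is taken only as a bound, the counts higher and lower were 11 and 8 in suspension, 11 and 11 on re-adhesion, and 1 (Plxdc1) and 4 (Serpinb2, Hgf, Mmp3 and Thbd) between re-adherent and adherent cells. The other members of the serpin family gave 33 measured genes of 57. Of these, 6 rose and 4 fell in suspension, and 5 rose and 6 fell on re-adhesion, not counting those whose bound was under 2-fold. Counted as the shares of all genes are, 7 were over 2-fold higher and 4 lower in suspension, and 6 and 8 on re-adhesion. Serpind1, heparin cofactor II, another serpin that inhibits thrombin, read 1250 units in adherent, 19.1 units in non-adherent and 2217 units in re-adherent cells. It fell by 6.13 on the log2 scale, with an error of 0.34, and its non-adherent intensity was close to background. Serpina3n, an inhibitor of leukocyte proteases, read 432, 10617 and 224 units, a log2 difference of 4.52 in suspension and -5.20 on re-adhesion. Serpina9 and Serpinb6b fell by 2.51 and 3.29 in suspension and rose by 4.07 and 3.99 on re-adhesion. Serpina3i had log2 differences of 2.03 and -3.07 in these steps. The Serpina3 and Serpinb6 genes have near-identical copies, and binding of their RNA to one another's probes was not tested.

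Most macrophage and endothelial markers moved in the same directions as Plau and Serpine2. Not every list did so, and the mesothelial markers had median log2 differences of -0.41 in suspension and 1.53 on re-adhesion. Of all genes, 17.2% were over 2-fold higher and 14.7% over 2-fold lower in suspension. Of 12 macrophage markers listed, 11 had a probe with that symbol (Cd68 did not), and Itgam is also on a list above. Of the 11, all well above background on all 3 arrays, 10 were over 2-fold higher and 0 over 2-fold lower in suspension, with a median log2 difference of 2.61, and the summed scaled intensity of the list was 158, 833 and 292 in adherent, non-adherent and re-adherent cells. Ptprc, Adgre1 and Csf1r rose by 2.68, 3.16 and 2.61 on the log2 scale and fell by 1.83, 2.24 and 1.24 on re-adhesion. Cx3cr1, a chemokine receptor of macrophages, was the 1 marker over 2-fold higher on re-adhesion, and 9 of the 11 were over 2-fold lower. Between re-adherent and adherent cells the 11 markers differed by -0.16 (Itgam, by its brightest probe) to 4.62 (Cx3cr1), with a median of 0.85. Plau and Serpine2 differed by 0.28 and -0.49. Macrophages are known to make urokinase. The part of these cells in the values of Plau and Serpine2 was not tested, and a larger share of such cells cannot be told apart from more RNA of these genes per cell in bulk RNA.
Of 10 endothelial markers, 6 rose and 0 fell in suspension (median 1.18), and their summed scaled intensity was 24.4, 38.1 and 22.9. Kdr, counted by its brighter probe, had log2 differences of -0.35 in suspension and 0.74 on re-adhesion. Its second probe gave 1.96 and -3.18. Cdh5 rose by 2.94 and fell by 6.12 on the log2 scale, and Pecam1 rose by 1.21 and fell by 1.93. Endothelial cells are known to make tissue-type activator, and Plat differed by -0.04 and -0.05 in the same steps. The part of endothelial cells in the values of Plat was not tested. Myh6, a cardiomyocyte myosin, read between 26.9 and 75.6 units. Of 8 fibroblast markers, 2 rose and 4 fell in suspension, with a median difference of -0.86. Thy1 fell by 3.50 and then rose by 3.27, whereas the matrix proteoglycan genes Lum and Dcn rose by 3.56 and 1.69 and then fell by 6.41 and 3.20, the same directions as Plau and Serpine2. Of the 4 myofibroblast markers, 3 fell in suspension (median of the list -6.31) and 3 rose on re-adhesion (median 6.37). Postn differed by -0.12 and -0.09 in these steps. In suspension the medians of the other lists were 0.99 for cardiomyocytes, 0.62 for neutrophils, 0.23 for Schwann cells, -0.41 for mesothelial cells and 0.79 for pericytes. The cardiomyocyte median rests on 5 measured genes of 8 and the neutrophil median on 2 of 4.

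**Figure D4:**
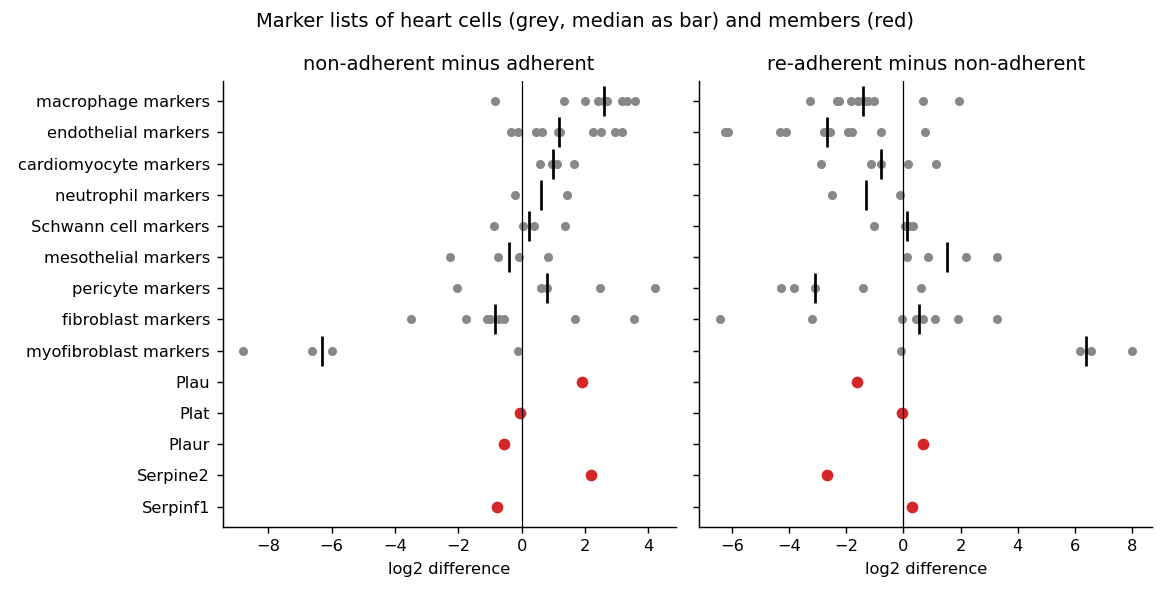
Log2 differences in suspension (left) and on re-adhesion (right) of each measured gene on 9 marker lists (grey points, median as a bar) and of the 5 genes (red), with 1 array per state. Of 11 macrophage markers, 10 lie right of 0 in suspension, with a median of 2.61, beside Plau (1.90) and Serpine2 (2.19). Itgam lies left (-0.84) by its brightest probe, while another of its probes gave 1.96. The 4 myofibroblast markers have a median of -6.31, with Postn at -0.12.

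The genes nearest to each of the 5 in both steps were sought among 13478 genes well above background on all 3 arrays, by the root sum of squares of the differences from it. With 3 arrays, many genes lie close. For Serpine2 the nearest were Hpx (distance 0.037), Vmn2r111 (0.041) and Gucy1a1 (0.12), and 10 genes (0.0742%) lay within its technical error. For Plau they were Atp6v1b2 (0.021), Pfkfb4 (0.028) and Tlr4 (0.035), with 81 genes (0.601%) within the error. For Serpinf1 they were Cacna2d1, Rbmx2 and Kin, for Plaur Pno1, Lbx1 and Ash2l, and for Plat Kank1 and 5830417I10Rik, with 219, 697 and 914 genes within the error.

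**Figure D5:**
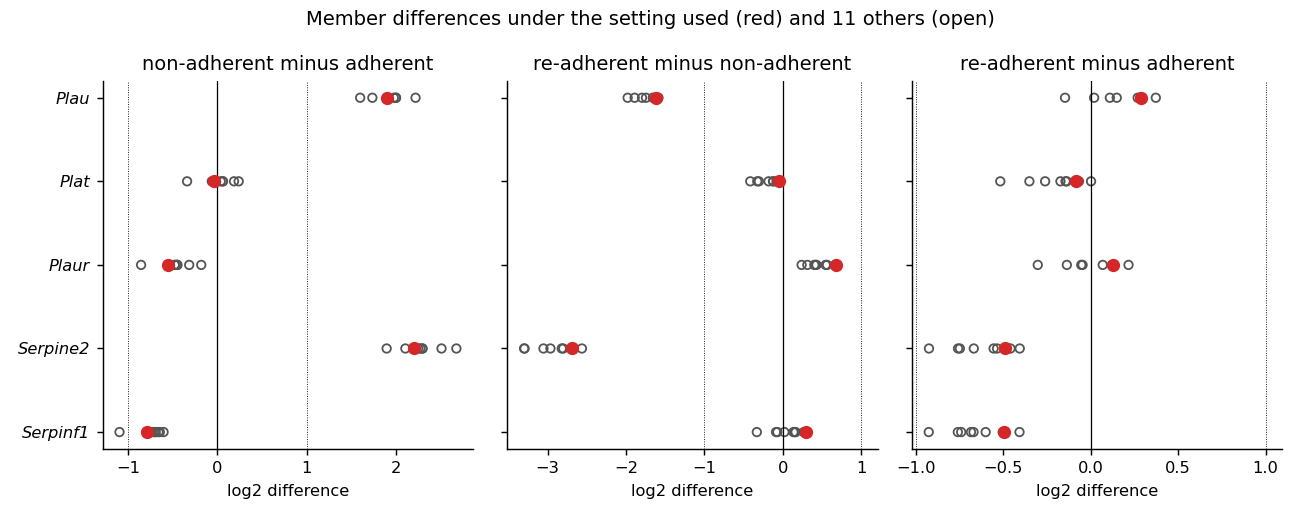
Log2 differences of the 5 genes in each comparison as given here (red) and under 11 other ways of scaling or reading the arrays (open circles), with dotted lines at 2-fold. Serpine2 and Plau stay over 2-fold higher in suspension and over 2-fold lower on re-adhesion under every setting, and Plat, Plaur, Serpinf1 and Plau each cross 0 in 1 or more comparisons.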

How the data were processed

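Total RNA of 3 cell states was labelled with Cy3 and hybridised to 1-colour Agilent SurePrint G3 mouse arrays. All 3 arrays lay on 1 slide and had 1 scan time. The authors deposited spot intensity from Agilent Feature Extraction 10.10.1.1, background-subtracted and on a linear scale, and a matrix that equals that intensity times 1 constant per array (1.52, 1.52 and 1.62). Control and outlier spots were left out, and the log2 intensity was reduced by the array's 75th percentile. Probes were named through RefSeq transcripts (GRCm38.p6, 27235 of 55681 probes with 1 symbol). A gene was its brightest probe well above background on at least 1 array. No coordinate of the array design (mm9) was used. Scripts ran in Python 3.11.15 and R 4.3.3 with limma 3.58.1 (normexp and quantile) and were tested on simulated data. With 1 array per group no test was possible, and the number of arrays limits the precision. Probes spotted 10 times gave an SD of the log2 difference within arrays of 0.061 to 0.077.

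The genes and lists were chosen with earlier results of these data known. Named genes were the 5 genes, up to 5 per list with the largest step, Serpinb2, Serpinf2 and Plg, the 3 nearest to each gene, and set markers; some items are not reported here and are left out of the lists and their counts. Genes outside this rule, named after their values were seen, are Lrp1, Klkb1, Itgam, Vtn, F2rl1, F2rl3, Mmp9, F2, Cx3cr1, Cd68, Kdr, Lum and Dcn. Alternatives were other scalings (the authors' matrix, none, median, quantile, spike-in), normexp, all probes averaged, a floor, outliers kept, filters, other folds and the local median.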

Additional observations from a re-analysis of the deposited data

How the results depend on the processing

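The differences of the 5 genes were recomputed under 11 alternatives each, 2 of them chosen after seeing the data (normexp on the median spot intensity, and the local median of spots above background). Serpine2 stayed between 1.89 and 2.67 in suspension and between -3.30 and -2.56 on re-adhesion, and Plau between 1.60 and 2.22 and between -1.98 and -1.58, as log2 differences. No gene crossed 2-fold except Serpinf1 in suspension with spike-in scaling. The scalings move all genes together, and with spike-in scaling the median of all genes was -0.37, -0.05 and -0.37 in suspension, on re-adhesion and between re-adherent and adherent cells, with no scaling 0.03, -0.28 and -0.20, and with the authors' matrix 0.03, -0.20 and -0.11. Relative to the median of all genes, Serpine2 lay between 2.16 and 2.61 in suspension and Plau between 1.80 and 2.02. Plat in suspension changed sign under 5 alternatives, Serpinf1 on re-adhesion under 3, Plaur between re-adherent and adherent cells under 4 and Plau and Plat there under 1 each.
With spike-in scaling the differences in suspension were 1.89 for Serpine2, -1.09 for Serpinf1, -0.34 for Plat, 1.60 for Plau and -0.85 for Plaur, and between re-adherent and adherent cells -0.93, -0.93, -0.52, -0.15 and -0.30 in the same order. With no scaling they were -3.05, -0.067, -0.41, -1.98 and 0.32 on re-adhesion and -0.76, -0.76, -0.35, 0.019 and -0.14 between re-adherent and adherent cells. The authors' matrix gave -2.96, 0.022, -0.32, -1.89 and 0.40 on re-adhesion, and quantile normalization gave -0.084 for Serpinf1 and 0.42 for Plaur.
With the local median subtracted, suspension gave 2.51 for Serpine2, 0.24 for Plat, 2.22 for Plau and -0.18 for Plaur, re-adhesion -3.30 for Serpine2, -0.33 for Serpinf1, -0.30 for Plat and 0.24 for Plaur, and re-adherent against adherent cells -0.75 for Serpine2 and -0.74 for Serpinf1. The local median of spots above background gave 2.67 for Serpine2, 0.19 for Plat and -0.31 for Plaur in suspension, and -3.29 for Serpine2 and 0.43 for Plaur on re-adhesion.
Counts over the 38 genes of the 5 lists moved as follows. Spike-in scaling gave 7 higher and 15 lower in suspension, 1.5-fold in place of 2-fold 15 lower, and the local median 7 higher on re-adhesion. At 4-fold there were 3 higher and 4 lower in suspension, 5 higher and 6 lower on re-adhesion, and 0 higher and 2 lower between re-adherent and adherent cells. There, normexp gave 1 higher and 3 lower, the floor and the filter on all 3 arrays 1 higher and 4 lower each, and 1.5-fold 5 higher. The cause of these shifts was not tested. No paired analysis was possible because a state had only 1 array, and for the same reason no replicate could be left out. Intensity near background limits Plg and Serpinf2, and also Klkb1, Vtn, F2rl1, F2rl3 and Mmp9, which were below background in 1 or more states. Serpind1 (19.1 units) and Pdgfd (21.8 units) passed the threshold in non-adherent cells but lay close to the lowest intensity above it, 14.0 units.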
